A study of Mus musculus with 11 samples.

Results

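The genes that encode the proteins of the cytosolic ribosome were followed in fibroblasts sorted from the mouse thymus before and after dexamethasone, a synthetic glucocorticoid that makes the thymus shrink. Members were chosen by symbol alone, as Rps or Rpl followed by a number and an optional a, x or y, with the 3 stalk genes Rplp0, Rplp1 and Rplp2 and with Rpsa. That gave 75 of the 12430 genes in the counts, 30 of the small subunit, 42 of the large subunit and 3 of the stalk. All 75 are annotated as protein-coding in GENCODE and none as a pseudogene. Rpl26 was not analysed here. All mice were young wild-type males. Untreated mice of matched age gave 4 libraries. Mice injected intraperitoneally with dexamethasone at 200 ug per 10 g body weight gave 3 libraries at 18 h and 4 libraries at 4 d. For the later group the titles give 3 d and the descriptions and treatment text 4 d, and it is called 4 d. Per the labels, the cells were sorted as CD45-EpCAM+CD34+CD31-PDGFRalpha+, and nothing in them says how many animals were pooled or whether each library came from a separate mouse. The p-values therefore measure the spread between these libraries, which may be technical.

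Each ribosome needs a single copy of nearly every one of these proteins, and the stalk proteins are the exception, since several copies of Rplp1 and Rplp2 sit on Rplp0 and recruit the translation factors. The mRNAs of the family begin with a C followed by a run of pyrimidines, the 5′ terminal oligopyrimidine (TOP) tract. Through this tract the kinase mTORC1 and the RNA-binding protein Larp1 set how much of each mRNA is translated or stored, so mRNA level and protein output can part. Most members also have many processed copies in mouse genomes, and some members have known roles apart from the ribosome.

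The letters CTTTCC, a pyrimidine run that opens with C, were searched for around the annotated starts. RefSeq gave 65 start sites for 55 of the members on GRCm38.p6. On the sense strand, from 30 bases before to 30 bases after the start, they were in 12 of the 65 windows (18.5%), against 2.89% of all 32851 windows of the same length. The windows of 3 members that are described below hold the run and are shown with it in capitals, each 5′ to 3′ on the gene's strand. Rpl22 and Rps15a are the members that passed the test at 18 h, and their windows, shown beside these, lack those 6 letters.
Rpl38 (chr11:114668550-114668609, plus strand): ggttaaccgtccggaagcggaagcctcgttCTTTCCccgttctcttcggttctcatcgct
Rpl13a (chr7:45128716-45128775, minus strand): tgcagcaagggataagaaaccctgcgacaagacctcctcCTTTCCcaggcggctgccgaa
Rps10 (chr17:27635215-27635274, minus strand): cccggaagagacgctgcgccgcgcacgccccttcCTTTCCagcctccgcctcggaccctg
Rpl22 (chr4:152325696-152325755, plus strand): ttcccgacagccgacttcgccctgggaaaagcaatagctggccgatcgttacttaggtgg
Rps15a (chr7:118116118-118116177, minus strand): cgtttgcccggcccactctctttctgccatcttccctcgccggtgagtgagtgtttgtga
In Rpl38 CTTTCC opens at the annotated start itself, and in Rps10 and Rpl13a it opens 4 and 9 bases after it. A second search, chosen after these windows were seen, took any run of C and T that opens with C at the annotated start and goes on for at least 4 more bases. It was in 13 of the 65 windows (20%), against 2.51% of all. The Rps15a window holds such a run of 8 bases, as does that of Rpl38, that of Rps10 holds one of 10 bases, and neither Rpl22 window holds one. Over the full 300-base windows and both strands, CCGGAAG, the core that ETS-family factors bind, was in 35.4% of the members' windows and 8.86% of all windows. AAGATGGC, part of the sequence that YY1 binds, was in 10.8% and 2.75%. In the 60 bases around the start on the sense strand alone, CCGGAAG was in 10.8% and 2% and AAGATGGC in 0 of 65 and 0.563%. These are matches of letters only.

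Total counts ran from 916281 to 3357113 per library, and 18 h replicate 2 and 4 d replicate 4 were the shallowest by far. Untreated replicate 1 stood apart in the mix of short and long members. Markers of other cell types were raised at 18 h, unevenly between libraries. Both are given with the results they touch. Pdgfra, which the sort selected for, lay between 49.8 and 153 CPM, and Cd34 between 467 and 1297 CPM. Epcam lay between 0.377 and 10.3 CPM although the labels list EpCAM as positive. CPM here are counts scaled to a common library total with edgeR's TMM factors. They are counts of 3′ ends not divided by length, so levels are compared between libraries and not between genes. The levels fall into a high and a low set. In untreated libraries 65 members averaged from 68.7 to 6419 CPM, and the other 10 averaged from 0.67 to 33.0 CPM. These 10 are Rps20, Rpl30, Rps15a, Rps27, Rpl21, Rpl34, Rps24, Rpl39, Rpl5 and Rpl15.

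Near-identical copies limit the values of single members. In the last 300 bases of the shortest principal transcript, 15 members shared no 50-base stretch with another annotated gene, 47 shared over 50% of their stretches, and 5, among them Rpl10 and Rps12, shared all of them. The median was 65.3%. The level of each such member is uncertain, since the sources used here do not say how reads that match several genes were counted. Results for the 15 members without such stretches are given apart.

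The family took between 9.68 and 14.1% of each library, and the groups overlapped. Its share of all counts was 11.05, 9.68, 10.97 and 12.3% in untreated replicates 1 to 4, or 10.99% ± 1.06 (SD, n = 4). At 18 h it was 11.8, 10.5 and 11.1%, or 11.1% ± 0.658 (SD, n = 3), and every value lay inside the untreated range. At 4 d it was 11.8, 11.2, 13.0 and 14.1%, or 12.5% ± 1.27 (SD, n = 4). Both highest libraries were from 4 d, while the other 2 libraries of that group lay inside the untreated range. The small subunit genes averaged 4.68% ± 0.575 in untreated libraries, 4.71% ± 0.292 at 18 h and 5.38% ± 0.463 at 4 d. The large subunit genes averaged 5.02% ± 0.467, 5.07% ± 0.333 and 5.70% ± 0.686, and the stalk 1.29% ± 0.0607, 1.36% ± 0.0759 and 1.44% ± 0.189. The order of the 3 sets was the same in each group. These sums describe the libraries and were not tested.

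**Figure D1:**
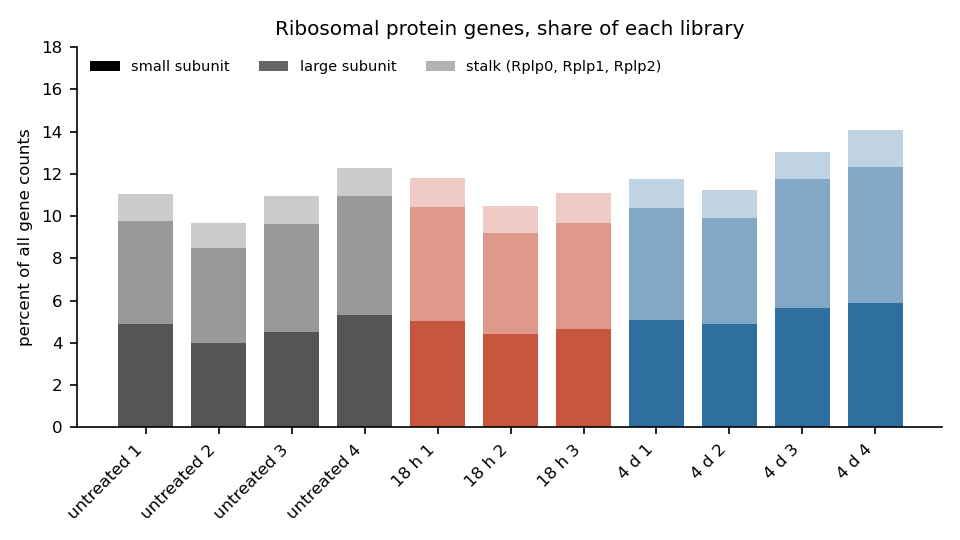
Percent of all gene counts (vertical axis) taken by the 75 ribosomal protein genes in each of the 11 libraries (horizontal axis; grey untreated, red 18 h, blue 4 d), with dark, middle and light parts for the small subunit, the large subunit and the stalk. The 18 h libraries lie between 10.5 and 11.8%, inside the untreated range of 9.68 to 12.3%, and the highest library is 4 d replicate 4 at 14.1%.

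The comparison of 18 h with untreated libraries asks whether ribosomal protein mRNAs moved in the acute phase. Few did. Of the 72 members with enough counts to be tested, 1 rose (Rps15a) and 1 fell (Rpl22) at an adjusted p below 0.05 in edgeR's quasi-likelihood test, where 7.83% of all 10067 tested genes rose and 4.67% fell (12.5% either way). Rpl30, Rps27 and Rps20, with at most 8 counts in any library, could not be tested. At an unadjusted p below 0.05 there were 8 members higher and 1 lower, against 15.4% and 12.7% of all genes. The 8 became 3 without untreated replicate 2 or 3 and 2 without 18 h replicate 1. That number rose to 11 without untreated replicate 1 or 4 d replicate 4, and to 10 without 18 h replicate 3. In 13 members the 18 h libraries all exceeded the highest untreated one, against 12.2% of all genes, and in 1 all were under the lowest, against 11.5%. The median log2 difference of the 72 was 0.26, with 55 above 0, beside -0.03 over all genes, of which 48.1% were above 0. The members' differences had a median SE of 0.26, as large as their median.

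**Figure D2:**
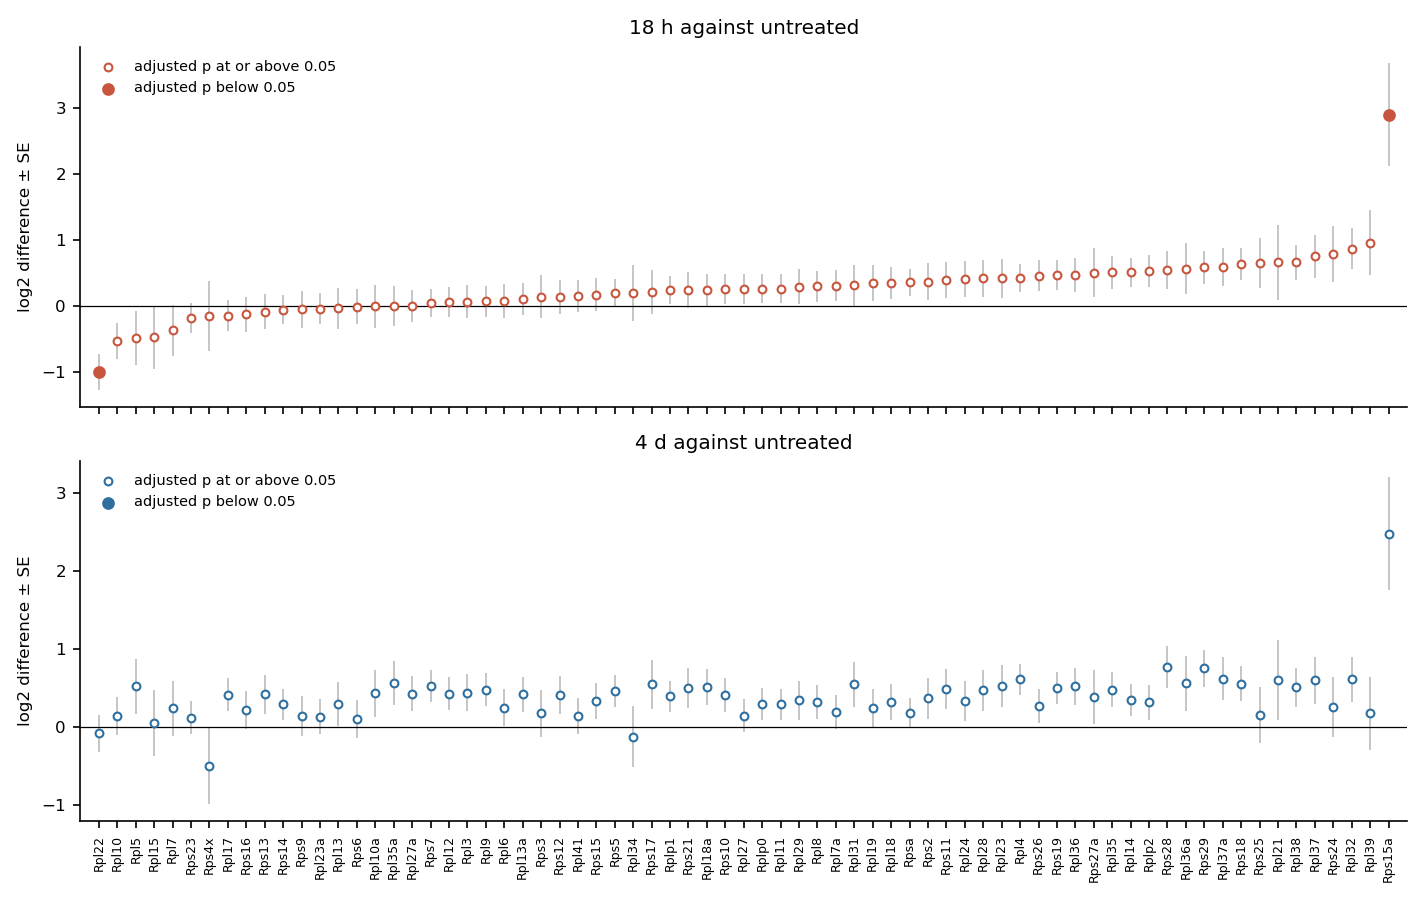
Log2 difference from untreated (vertical axis, bars are 1 SE) at 18 h (upper panel) and 4 d (lower panel) for 71 of the 72 tested members, ordered by their 18 h difference. Filled points passed an adjusted p of 0.05, which only Rpl22 (-1.003) and Rps15a (2.89) did at 18 h and none did at 4 d in this fit.

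Rpl22, a large subunit protein that binds RNA and that mice need for the development of alpha-beta T cells more than for translation in general, was the member that fell. The gene lies on chromosome 4, 152325742 to 152334071 (GRCm38, plus strand). Its level was 73.7, 50.7, 81.3 and 69.0 CPM in untreated libraries and 46.2, 24.2 and 30.9 CPM at 18 h, so that no 18 h library reached the lowest untreated one. At 4 d it was 57.2, 53.3, 80.7 and 70.7 CPM, all within the untreated range. The 18 h log2 difference was -1.003 ± 0.272 (SE, edgeR adjusted p = 0.0278). The call held in 7 of the 11 fits that each left out 1 library, with adjusted p up to 0.0766. It was lost without untreated replicate 3 or 4 and without 18 h replicate 2 or 3, and the difference was then between -1.01 and -0.84. Of its stretches, 23.9% are shared with other genes.

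Its paralog Rpl22l1, which takes the same place on the ribosome and which Rpl22 holds down in mouse cells, was counted low in every group. It stood at 3.09, 11.1, 8.52 and 11.3 CPM in untreated libraries, at 13.3, 9.67 and 26.6 CPM at 18 h and at 9.42, 12.7, 13.3 and 21.1 CPM at 4 d. The groups overlap, and the 18 h difference of 0.997 ± 0.437 did not pass (edgeR adjusted p = 0.151).

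Rps15a, a small subunit protein, rose from almost nothing. It had 1, 2, 5 and 4 counts in untreated libraries, 8, 23 and 6 at 18 h and 16, 13, 27 and 10 at 4 d, so every treated library held more counts than any untreated one. On the scaled level these are 0.516, 1.12, 1.78 and 1.51 CPM, then 4.25, 27.8 and 2.85 CPM, then 5.80, 4.59, 8.96 and 12.4 CPM. The 18 h log2 difference was 2.89 ± 0.78 (edgeR adjusted p = 0.0265), and 1 library carries much of it, since without 18 h replicate 2 it was 1.42 with an adjusted p of 0.16. The call was also lost without untreated replicate 2, 3 or 4. At 4 d the difference was 2.48 ± 0.72 (edgeR adjusted p = 0.0761). The gene spans 118104372 to 118116188 on chromosome 7 (GRCm38, minus strand), and 77.3% of its stretches are shared with other annotated genes, so the source of these few counts is uncertain.

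**Figure D3:**
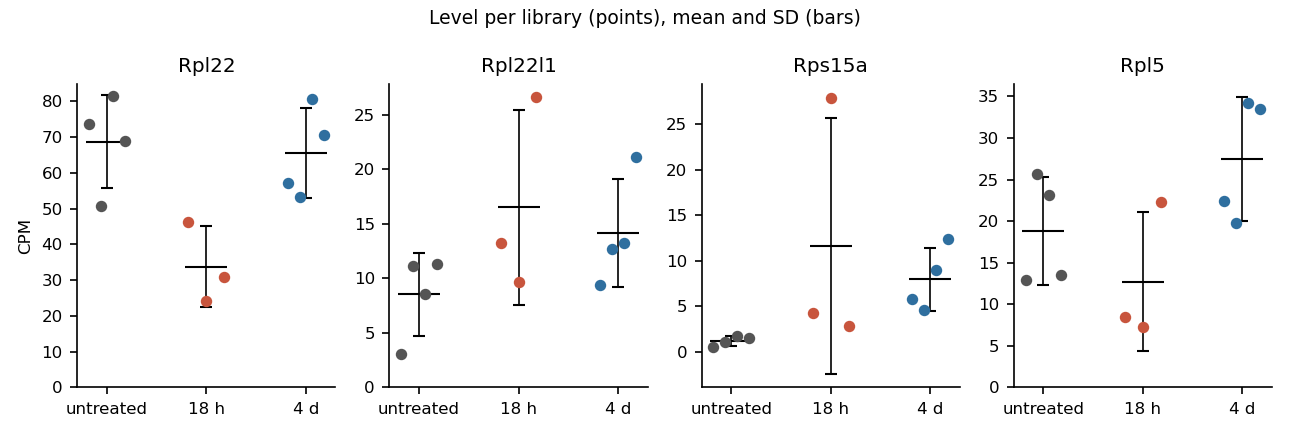
CPM per library (points) of Rpl22, its paralog Rpl22l1, Rps15a and Rpl5 in the 3 groups, with group mean and SD as bars. Rpl22 is at 24.2 to 46.2 CPM at 18 h, below every untreated library (50.7 to 81.3 CPM), and the Rps15a mean at 18 h rests on 1 library at 27.8 CPM.

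The remaining members are given by their place in the ribosome. On the stalk, all 3 differences at 18 h were above 0 and none passed. Rplp2 stood at 2381, 1788, 2387 and 2617 CPM in untreated libraries and at 3426, 3365 and 3147 CPM at 18 h, without overlap, a log2 difference of 0.53 ± 0.24 (edgeR adjusted p = 0.167). Rplp0, the anchor of the stalk, went from 3091 ± 372 to 3708 ± 204 CPM, also without overlap, a difference of 0.26 ± 0.22. Rplp1, the member with the most counts, went from 6419 ± 597 to 7600 ± 845 CPM, with overlap.

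Among small subunit members at 18 h, Rps19 and Rps14 are the genes whose loss of a single copy is tied to failing red cell production in humans. Rps19 stood at 2355 ± 292 CPM in untreated libraries and 3257 ± 301 CPM at 18 h, without overlap, and the difference of 0.47 ± 0.22 did not pass (edgeR adjusted p = 0.186). Rps14 stood at 2638 ± 280 and 2540 ± 43.1 CPM, a difference of -0.05 ± 0.22 with a 95% interval from -0.48 to 0.37. These neighbours in function thus gave differences of opposite sign, neither of which passed. Rpsa, which is also known as a laminin-binding protein precursor, had 18 h libraries at 3297, 3844 and 3434 CPM, all above the untreated range of 2615 to 3045 CPM (0.36 ± 0.21). Rps6, the substrate of the S6 kinases that is phosphorylated downstream of mTORC1, stood at 270 ± 69.7 and 267 ± 78.3 CPM (-0.01 ± 0.26). Rps3, at the channel where mRNA enters, gave 0.14 ± 0.32, Rps2 next to it 0.37 ± 0.28, and Rps10 0.26 ± 0.23. Rps28 and Rps29, among the smallest members, gave 0.54 ± 0.29 and 0.59 ± 0.25. Rps27a, made as a fusion with ubiquitin, gave 0.51 ± 0.37, and its 18 h libraries at 849, 247 and 852 CPM lay on both sides of the untreated range of 326 to 640 CPM. Rps4x, on the X chromosome, gave -0.15 ± 0.53, with untreated libraries as far apart as 220 and 956 CPM.

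Among large subunit members, Rpl32 had the lowest p after Rps15a among differences above 0 at 18 h. Its libraries stood at 1964, 1864 and 1183 CPM, above the untreated 1177, 604, 735 and 1145 CPM, of which the closest came within a few CPM. The difference of 0.87 ± 0.31 did not pass (edgeR adjusted p = 0.083), while the authors' deposited table lists Rpl32 as higher (adjusted p = 0.0476). Rpl38, which mouse embryos need for the translation of Hox mRNAs, gave 0.67 ± 0.27 (edgeR adjusted p = 0.115), and its untreated replicate 1, at 1335 CPM, lay inside the 18 h range of 1107 to 1648 CPM. Rpl5 and Rpl11, which bind the 5S rRNA together and hold back the p53 regulator Mdm2, gave -0.49 ± 0.41 and 0.26 ± 0.22. Rpl23, another Mdm2 binder, gave 0.42 ± 0.29. Rpl3, near the centre where peptide bonds form, gave 0.07 ± 0.26, Rpl13a 0.11 ± 0.24 and Rpl41, the shortest protein of the ribosome, 0.15 ± 0.25. Rpl10, which joins the large subunit last and completes it, was the lowest after Rpl22, at 476, 489 and 776 CPM against 727, 841, 912 and 876 CPM in untreated libraries (-0.53 ± 0.27, edgeR adjusted p = 0.212).

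The comparison of 4 d with untreated libraries asks whether the family was raised once the acute phase had passed. No member passed the edgeR test, where 3.31% of all tested genes did, 2.48% higher and 0.824% lower. At an unadjusted p below 0.05 there were 13 members higher and 0 lower, against 9.72% and 8.62% of all genes, and the lowest adjusted p was 0.0761 (Rps15a). DESeq2 called 5 members higher, among them Rpl4, Rps15a and Rps29, and 0 lower, and limma-voom called 0. For these 2 methods the shares over all genes are not given here. The authors' deposited table lists 3 members higher (Rpl4, Rps15a and Rps29) and 0 lower, where 456 of all 12430 genes were higher and 170 lower. The 13 became 4 without untreated replicate 2 or 4 d replicate 3, 5 without untreated replicate 3, 20 without untreated replicate 1 and 23 without 4 d replicate 2. The differences were small and lay mostly on 1 side. Their median was 0.41 with 69 of 72 above 0, beside -0.04 over all genes, of which 46.4% were above 0. Without 4 d replicate 4, the shallow library with the highest share, the median was 0.25 with 60 above 0. In 11 members the 4 d libraries all exceeded the highest untreated one, against 8.08% of all genes, and in 0 all were under the lowest, against 6.56%.

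Rps29 had the lowest p at 4 d among the 65 well-counted members. Its libraries stood at 2124, 2037, 2906 and 2359 CPM, all above the untreated 2036, 1137, 1189 and 1223 CPM, with the lowest 4 d library only just above untreated replicate 1. The difference was 0.75 ± 0.23 (edgeR adjusted p = 0.0894). Rpl4, a large subunit protein that lines the exit tunnel, came next. It stood at 2290, 2274, 3258 and 2495 CPM, above the untreated range of 1549 to 1960 CPM (0.61 ± 0.20, edgeR adjusted p = 0.103). Rps28 gave 0.78 ± 0.27, from 1063 ± 323 to 1820 ± 446 CPM (edgeR adjusted p = 0.132), also without overlap. Rps19 gave 0.50 ± 0.21 and Rps14 0.30 ± 0.20. On the stalk, Rplp1 stood at 7347, 7353, 8636 and 10524 CPM, above the untreated range of 5939 to 7284 CPM (0.40 ± 0.20). Rplp0 and Rplp2 gave 0.30 ± 0.20 and 0.32 ± 0.22, with overlap. Rpl3, Rpl13a and Rpl11 gave 0.45 ± 0.24, 0.42 ± 0.23 and 0.29 ± 0.20. Only Rps4x (-0.50 ± 0.49), Rpl34 (-0.12 ± 0.39) and Rpl22 (-0.08 ± 0.24) were below 0, each by about its SE or less.

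Between 18 h and 4 d, no member passed the edgeR test, where 1.7% of all tested genes were higher at 4 d and 3.81% lower (5.51% either way). At an unadjusted p below 0.05 there were 5 members higher and 0 lower, against 9.89% and 11.7% of all genes, DESeq2 called 1, Rpl22, and limma-voom 0. The 5 became 1 without 18 h replicate 2, 2 without 4 d replicate 3 and 1 without 4 d replicate 4. That number rose to 7 without 18 h replicate 3 and to 6 without 4 d replicate 1. Rpl22 was higher at 4 d without overlap, by 0.93 ± 0.27 (edgeR adjusted p = 0.0628), and the authors' deposited table also lists it as higher (adjusted p = 0.0267). Rpl5 gave 1.01 ± 0.41, from 8.49, 7.26 and 22.3 CPM at 18 h to 22.5, 19.8, 34.2 and 33.5 CPM at 4 d. It did not pass (edgeR adjusted p = 0.164). Of the 11 fits that each left out 1 library it passed in 1, without 18 h replicate 3, where the difference was 1.75 and rested on 16 and 6 counts at 18 h. Rpl10 gave 0.68 ± 0.27 (edgeR adjusted p = 0.158). The median of the members was 0.12 with 48 above 0, beside 0.00 over all genes, and it was 0.01 without 4 d replicate 4. Both times are compared with the same untreated libraries, so their values for a member share that reference.

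Scaling the libraries without the family left these results in place. The 72 members, fitted with library sizes and TMM factors from the other genes only, again gave 1 higher and 1 lower at 18 h and 0 at 4 d and between the times, with medians of 0.26, 0.41 and 0.12. On that scale 7.84% of all genes were called higher and 4.64% lower at 18 h. At 4 d these shares were 2.49% and 0.795%. Between the times they were 1.7% and 3.81%. Scaling by library size alone moved the median of all genes by -0.23 at 18 h and by -0.18 at 4 d. The members' medians were then 0.02 and 0.20, beside -0.26 and -0.22 over all genes, and their calls were the same in number. Each scaling applies the same factor to all genes of a library, so the members' distance from the median gene was nearly fixed in advance. Their difference from 0 depends on the scaling.

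Taking each member as a share of the family's own counts shows which members moved against the rest of the ribosome. At 18 h this gave 1 member higher and 2 lower, where 4.85% of all genes were higher and 7.9% lower on that scale. Rpl22 fell by 1.26 on the log2 scale (± 0.28, edgeR adjusted p = 0.00864), and Rps15a rose by 2.68 ± 0.74 (edgeR adjusted p = 0.0274). Rpl10, lower by 0.53 without passing on the library scale, fell by 0.80 ± 0.26 here, just under the threshold (edgeR adjusted p = 0.0498). All stretches of Rpl10 that were compared are shared with other genes. At the other end, Rpl39, at the exit tunnel for the new protein, gave 0.67 ± 0.49, and Rpl32 gave 0.64 ± 0.29. At 4 d no member passed, where 1.28% of all genes were higher and 3.52% lower, and none passed between the times, where the shares were 1.19% and 3.95%. The widest changes in share at 4 d were, besides Rps15a, Rps28 (0.39 ± 0.24) and Rps29 (0.38 ± 0.23) upward, and Rps4x (-0.91 ± 0.42), Rpl34 (-0.46 ± 0.44) and Rpl22 (-0.46 ± 0.25) downward. Between the times they were Rpl5 (0.89 ± 0.41), Rpl22 (0.81 ± 0.28) and Rpl10 (0.53 ± 0.25) upward, and Rpl39 (-0.88 ± 0.49), Rps25 (-0.65 ± 0.33) and Rps24 (-0.60 ± 0.46) downward.

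The 15 members free of shared stretches gave medians close to those of the whole family. Of them 14 were tested, and 0 passed edgeR's test in any comparison. At an unadjusted p below 0.05, 2, 3 and 1 were higher at 18 h, at 4 d and between the times. The shares over all genes were 15.4%, 9.72% and 9.89%. Their medians were 0.22 at 18 h and 0.43 at 4 d, with 13 and 14 above 0. The 45 tested members with over 50% shared had medians of 0.26 and 0.41.

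Within the family, some libraries were tilted by transcript length. The 65 members with a mean of at least 50 CPM were used. The deviation of each member from its mean over all 11 libraries was set against its transcript length. Spearman's rho across these genes was -0.66 in untreated replicate 1, where short members were high and long members low, and 0.57, 0.39 and 0.22 in untreated replicates 2 to 4. It was -0.13, -0.22 and 0.09 at 18 h and -0.23, 0.04, -0.33 and 0.29 at 4 d. Among 1251 other genes of the same lengths it lay between -0.25 and 0.19 in every library, and at -0.03 in untreated replicate 1. The points of a library share its depth and scaling, and the genes are not independent, so these values are descriptions. The 22 shortest members (271 to 583 bases) had 1.43 counts for each count of the 22 longest (851 to 1908 bases) in untreated replicate 1, and 0.896, 1.03 and 1.06 in the other untreated libraries. The ratio lay between 1.12 and 1.27 at 18 h and between 1.03 and 1.29 at 4 d.

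**Figure D4:**
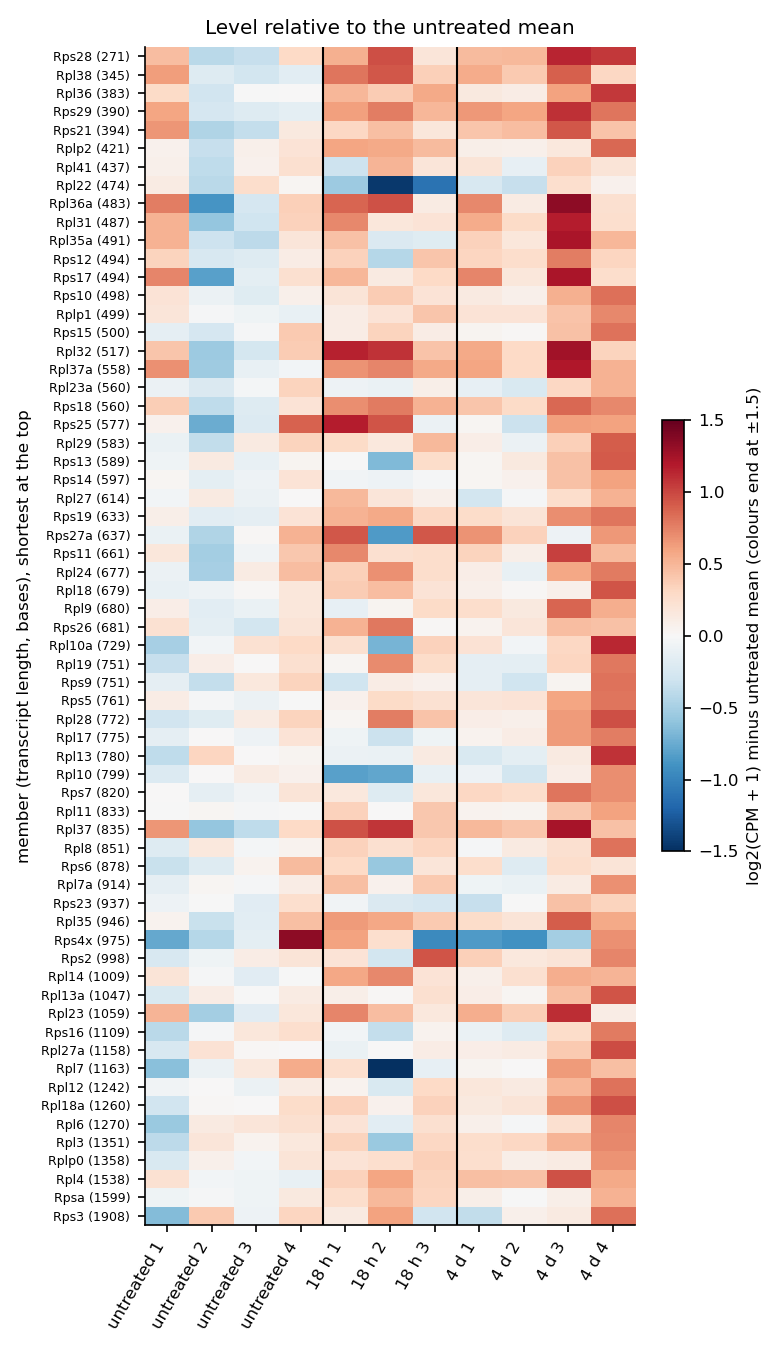
Colour gives log2(CPM + 1) minus the mean of the untreated libraries for 64 of the 65 well-counted members (rows, shortest transcript at the top, length in bases in brackets) in the 11 libraries (columns). Untreated replicate 1 is red at the top and blue at the bottom (rho -0.66), and untreated replicate 2 the reverse (rho 0.57). The rho values use deviations from the mean over all 11 libraries, not from the untreated mean. The columns of 4 d replicates 3 and 4 are red over most rows.

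This split touches the group differences. At 18 h the median difference was 0.31 for the 22 shortest, 0.26 for the 21 in between and 0.16 for the 22 longest. Without untreated replicate 1 the medians were 0.51, 0.24 and 0.10. At 4 d they were 0.51, 0.39 and 0.34, and 0.66, 0.34 and 0.28 without that library. Without it, 4 members passed as higher at 18 h, namely Rpl37a, Rpl38, Rps15a and Rps29, and 1, Rps29, at 4 d. The shares of all genes that passed without that library are not given here. Untreated replicate 1 was the highest untreated library for Rpl38 (1335 CPM against 716 to 773 CPM in the others) and for Rps29 (2036 against 1137 to 1223 CPM).

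The members varied little between replicates at 18 h and more at 4 d. The median coefficient of variation of the 65 members was 17.3% in untreated libraries, 14.3% at 18 h and 24.8% at 4 d, beside 20.4, 27.2 and 18.5% for 2764 other genes at the same minimum level. The 2 highest family shares were those of 4 d replicates 3 and 4.

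Ribosomal proteins with other names were fitted alongside the members. Fau, whose protein is cut from a ubiquitin-like fusion, gave 0.17 ± 0.28 at 18 h and 0.53 ± 0.26 at 4 d, and Rps3a1 gave 0.28 ± 0.31 and 0.49 ± 0.28, none of which passed edgeR's test. Rack1, the signalling scaffold on the small subunit, stood at 1970 ± 157 CPM in untreated libraries and at 2386, 2464, 2816 and 3246 CPM at 4 d, without overlap (0.47 ± 0.20, edgeR adjusted p = 0.235). Of 5 genes listed as paralogs, of which Rps4l is annotated as a transcribed processed pseudogene, Rpl36al rose at 18 h, from 192 ± 45.8 to 369 ± 102 CPM (0.94 ± 0.26, edgeR adjusted p = 0.031), and 0 passed at 4 d. Its call held in 6 of 11 fits without 1 library, and 70.1% of its stretches are shared with other genes. Of all genes 7.83% rose at 18 h and 2.48% at 4 d.

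The mitochondrial ribosome gave other values. Of 68 mitochondrial ribosomal protein genes 66 were tested, and their medians were 0.13 at 18 h, -0.14 at 4 d and -0.26 between the times, beside 0.26, 0.41 and 0.12 for the cytosolic members. At 4 d 18 of 66 were above 0, against 46.4% of all genes, and at an unadjusted p below 0.05 there were 1 higher and 8 lower, against 9.72% and 8.62%. The difference between the 2 families was not tested. Mrpl30 was the only one to pass, from 132 ± 6.47 to 223 ± 9 CPM at 18 h (0.76 ± 0.19, edgeR adjusted p = 0.0201), where 7.83% of all genes rose.

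Some factors that work on the ribosome rose at 18 h. Of 34 initiation factor genes 5 rose and 0 fell, against 7.83% and 4.67% of all genes, with a median of 0.27. Eif3b and Eif3d, subunits of the complex that binds the small subunit, rose by 1.22 ± 0.26 and 0.996 ± 0.232, and the RNA helicase Eif4a1 by 1.12 ± 0.24 (edgeR adjusted p = 0.00908, 0.0135 and 0.00844). These 3 calls held without each library in turn. Eif4a1 stood at 254 ± 77.5, 550 ± 63.8 and 439 ± 35.0 CPM in the 3 groups. Eif6, which keeps the subunits apart, and Eif4e2 were the others. At 4 d 0 of 34 passed edgeR's test, against 2.48% of all genes higher and 0.824% lower. At an unadjusted p below 0.05, 7 were higher and 0 lower, against 9.72% and 8.62%. Eif3d was the 1 gene lower at 4 d than at 18 h (-0.87 ± 0.23, edgeR adjusted p = 0.0423), against 3.81% of all genes.

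Of 9 genes listed with elongation, 2 rose at 18 h and 1 at 4 d, against 7.83% and 2.48% of all genes. The list also holds Eef2k and Eef1e1, which are not elongation factors themselves. Eif5a rose at 18 h (0.88 ± 0.20, edgeR adjusted p = 0.011). Eef1g rose at both times, by 0.71 ± 0.20 at 18 h and 0.77 ± 0.19 at 4 d (edgeR adjusted p = 0.0335 and 0.0395). Eef1g stood at 541 to 574 CPM in untreated libraries, 745 to 1033 CPM at 18 h and 812 to 1048 CPM at 4 d. Eef1a1 and Eef2, which carry most of the work of elongation, gave -0.18 ± 0.26 and 0.46 ± 0.24 at 18 h. Of 23 further mRNAs with a TOP tract, a list that includes some of these factors, Eef1g was the only one to pass at either time, and the medians were 0.09 and 0.33. Tpt1, a TOP mRNA with more counts than most members, stood at 4614 to 6390 CPM in untreated libraries, at 3012, 1683 and 5592 CPM at 18 h and at 5965 to 10926 CPM at 4 d, and did not pass.

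Of 14 tested genes on a mixed list of subunit assembly factors and chaperones, 3 rose at 18 h, against 7.83% of all genes. At 4 d 4 rose, against 2.48%, and 0 fell at either time. Not every gene on the list, Zpr1 among them, is known to act on ribosomal proteins. The others did not pass, and the medians were 0.35 and 0.32. Ltv1, a factor of small subunit maturation, stood at 19.7 ± 3.69, 37.5 ± 6.35 and 45.8 ± 7.78 CPM in the 3 groups, by 0.95 ± 0.24 and 1.21 ± 0.22 (edgeR adjusted p = 0.0211 and 0.012). Grwd1, whose yeast counterpart chaperones Rpl3, rose by 1.26 ± 0.31 and 1.23 ± 0.29, while Rpl3 itself gave 0.07 ± 0.26 and 0.45 ± 0.24. Lsg1, which in yeast releases the export factor Nmd3 as Rpl10 is fitted, rose at 18 h by 0.96 ± 0.26. Nmd3 rose at 4 d by 1.54 ± 0.37, as did Zpr1 by 2.92 ± 0.60, the last from 1.05 ± 0.753 CPM.

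Of 15 noncoding genes that host small nucleolar RNAs, which guide the modification of ribosomal RNA, 4 rose and 1 fell at 18 h, against 7.83% and 4.67% of all genes, and 3 rose at 4 d, against 2.48%, with medians of 0.89 and 0.61. Snhg15 stood at 17.4 to 29.4 CPM in untreated libraries, 47.2 to 62.2 CPM at 18 h and 47.1 to 96.7 CPM at 4 d, a rise of 1.25 ± 0.28 and 1.51 ± 0.27 (edgeR adjusted p = 0.0119 and 0.0107). Snhg16 rose by 1.26 ± 0.31 and 1.43 ± 0.29. Snhg18 was the 1 that fell at 18 h (-1.21 ± 0.38, edgeR adjusted p = 0.0486), with overlap between the groups, and its call held in 2 of 11 fits without 1 library.

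**Figure D5:**
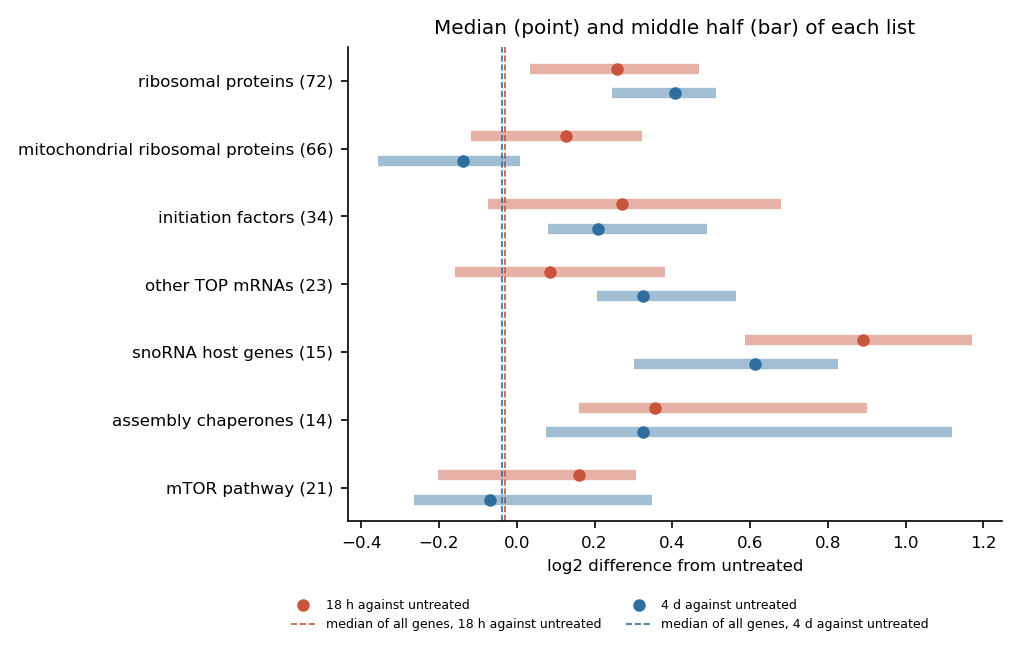
Median (points) and middle 50% (bars) of the log2 differences from untreated at 18 h (red) and 4 d (blue) for the members and related lists, with the number of tested genes in brackets and dashed lines at the medians of all genes (-0.03 and -0.04). The members lie at 0.26 and 0.41, the mitochondrial ribosomal proteins at 0.13 and -0.14, and the small nucleolar RNA hosts at 0.89 and 0.61.

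In the pathway that controls TOP mRNAs, 21 genes were tested, of which 2 rose at 18 h and 1 fell at 4 d, against 7.83% and 0.824% of all genes. The 18 h count is near the share over all genes. Ddit4, which encodes an inhibitor of mTORC1 and is a known glucocorticoid target, had the widest differences. It stood at 43.3, 46.8, 37.7 and 52.8 CPM in untreated libraries, at 125, 186 and 79.3 CPM at 18 h and at 12.7, 16.2, 12.3 and 13.6 CPM at 4 d, with no overlap between any of the groups. It rose by 1.51 ± 0.27 at 18 h (edgeR adjusted p = 0.00264) and was below the untreated level at 4 d, by -1.71 ± 0.27 (edgeR adjusted p = 0.00719). Larp1, which binds the TOP tract, rose from 18.9 ± 4.73 to 41.6 ± 13.6 CPM at 18 h (1.12 ± 0.29, edgeR adjusted p = 0.0229) and gave 0.72 ± 0.27 at 4 d. Eif4ebp1, an mTORC1 substrate that blocks initiation, gave 0.56 ± 0.24 and 0.12 ± 0.22.

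Markers of other cell types moved with the 18 h group, but unevenly between its libraries. At 18 h 7.83% of all tested genes rose and 4.67% fell, beside which the counts below stand. Of 9 tested endothelial markers 6 rose and 0 fell, with 8 differences above 0. Kdr was the 1 below 0, with 235, 141, 205 and 187 counts in untreated libraries and 69, 10 and 88 at 18 h. The summed level of the endothelial list, over 17 genes in the table, was 286 to 466 CPM in untreated libraries. It was 1546, 583 and 1016 CPM in 18 h replicates 1 to 3 and 321 to 371 CPM at 4 d. In the shallow 18 h replicate 2, Eng and Esam had 282 and 130 counts. Cldn5 had 170, 2 and 87 counts in 18 h replicates 1 to 3. Pecam1, the gene of the CD31 protein that the sort selected against, stood at 121, 14.5 and 42.7 CPM at 18 h and was at 0 in untreated replicate 2. Of 13 macrophage and monocyte markers 6 rose, with sums of 89.2 to 222 CPM in untreated libraries and 96.0 to 196 CPM at 4 d. In 18 h replicates 1 to 3 the sums were 459, 186 and 542 CPM, so replicate 2 lay inside the untreated range. For markers of pericytes and smooth muscle, 5 of 10 rose and 1 fell. Their sums were 202 to 392 CPM in untreated libraries, 1435, 890 and 524 CPM in 18 h replicates 1 to 3 and 221 to 267 CPM at 4 d. Of 5 genes on the thymocyte list 1 rose, with sums of 20.1 to 82.5, 37.5 to 90.7 and 9.53 to 40.2 CPM in untreated, 18 h and 4 d libraries. Of 6 thymic epithelial markers 0 passed, with sums, in the same order, of 322 to 698, 501 to 670 and 94.3 to 765 CPM. Of 18 fibroblast markers 2 fell at 18 h, with sums of 36902 to 51692, 26185 to 33292 and 41427 to 72191 CPM. The thymocyte list's riser was Ptprc, which encodes CD45, a protein of all leukocytes that the sort selected against. It stood at 0.516 to 5.58 CPM in untreated libraries, at 15.9, 6.05 and 14.2 CPM at 18 h and at 0 to 3.72 CPM at 4 d. In bulk libraries fewer cells of a type and less RNA per cell cannot be told apart. The part of these markers in the results for Rpl22, the translation factors and Ddit4 was not tested.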

How the data were processed

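Sorted thymic fibroblasts were profiled by MARS-seq, which reads 3′ ends of polyadenylated RNA, in 4 untreated libraries, 3 taken at 18 h and 4 at 4 d, grouped by the labels' treatment and time. Per the submitters' processing notes, bcl2fastq, cutadapt, STAR 2.5.2b, HTSeq and DESeq2 were used with mm10. For molecular identifiers and strand, the settings are not given in the sources used. Counts per gene, as whole numbers, were deposited by the authors and entered every test. Log2 fold changes and adjusted p-values from the authors are quoted where named.

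All 11 libraries entered 1 edgeR 4.0.16 quasi-likelihood fit (R 4.3.3, robust, filterByExpr minimum count 10, TMM, group only). Benjamini-Hochberg adjustment ran over 10067 genes, with a threshold of 0.05. The SE is the difference divided by the square root of F, and 95% intervals use 1.96 SE. The script was tested on simulated data. The 15 replicate pairs differed beyond sampling noise (lowest chi-square over its degrees of freedom 4.79). A count of 0 allows 0.894 to 3.27 CPM before TMM (3 counts per library, counting error only).

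Alternatives were scaling without the members, to their total and by library size, DESeq2 1.42.0, limma-voom 3.58.1, no filter, minimum count 20, only the groups compared, replicate blocks, and leaving out libraries. The members and lists were chosen with earlier results of these data known. Named members are 24 named by role, those called, the 3 highest and 3 lowest shares per comparison, and the 5 highest and 3 lowest untreated levels. From other lists up to 3 called genes per comparison were named, with Ddit4, Eif4ebp1, Eef1a1, Eef2, Tpt1, Rack1 and Fau. The results of 2 genes are not reported here; both stayed in the fits and counts. Other genes were named after their values were seen. Coordinates are from GENCODE on GRCm38, the sequence of mm10, and promoters from RefSeq (GRCm38.p6).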

Additional observations from a re-analysis of the deposited data

Results flagged for a closer look

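Among 110 groups of 4 libraries examined, 10 had a library far from the other 3, where chance gives about 1 in 20. In untreated replicate 1, Rpl38 was at 1335 CPM against 716 to 773 CPM, and Rps29 at 2036 CPM against 1137 to 1223 CPM. In untreated replicate 4, Rps4x was at 956 CPM against 220 to 341 CPM. In untreated replicate 3, Snhg16 was at 14.6 CPM against 22.2 to 23.4 CPM.

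At 4 d, replicate 4 was highest for Rplp2 (4116 CPM against 2402 to 2531), Rpsa (3943 CPM against 2734 to 2925) and Rps4x (608 CPM against 201 to 265), and lowest for Rps24 (1.24 CPM, which is 1 count). Replicate 3 was highest for Rps12 (6736 CPM against 4767 to 4962), and replicate 2 lowest for Rps6 (230.4 CPM against 301 to 316).

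The 18 h and 4 d effects differed by the direct test for 2 of 54 genes examined, against 5.51% of all tested genes. Ddit4 was 1.51 above untreated at 18 h and -1.71 at 4 d, a difference of -3.23 on the log2 scale (edgeR adjusted p = 1.33e-05), in the same direction in every library. Eif3d gave 0.996 and 0.126, a difference of -0.87 (edgeR adjusted p = 0.0423), whose call held in 2 of 11 fits without 1 library.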

How the results depend on the processing

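Under 22 alternatives 0 results changed sign while past the threshold. At 18 h, members higher numbered 4 with DESeq2 (Rpl14, Rpl32, Rps15a and Rps18) and 0 with limma-voom, minimum count 20, only the 2 groups compared or without the 2 shallow libraries, and 0 to 4 when single libraries were left out. Members lower numbered 2 with scaling to the members' total, 0 with only the 2 groups compared or without the 2 shallow libraries, and 0 to 1 when single libraries were left out. At 4 d, members higher numbered 5 with DESeq2, 1 with only the 2 groups compared or without the 2 shallow libraries, and 0 to 1 when single libraries were left out. Between the times they numbered 1 with DESeq2 and 0 to 1 when single libraries were left out. Apart from the scalings without the members and to their total, the shares of all genes called under these alternatives are not given here. The counts of members therefore cannot be set against them. With minimum count 20 or only the 2 groups compared, Rps15a did not reach the count minimum at 18 h and was not among the 68 and 69 members tested. The cause of the other changes was not tested. Without the 5 most abundant members the family's share was 8.86, 9.05 and 10.1% in untreated, 18 h and 4 d libraries.

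Deviations of same-numbered libraries had correlations from -0.34 to 0.19 by title number and -0.14 to 0.36 by description number. With so few libraries per group, these values cannot decide whether equal numbers share an animal, litter or day. With a replicate block by title or description number, members higher and members lower at 18 h both numbered 0. The members' medians were then, in that order, 0.35 and 0.43 at 18 h and 0.38 and 0.55 at 4 d.

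Depth limits the 10 members below 50 CPM, where a few counts set the value.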
